A study of Mus musculus with 4 samples.

Results

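Laminin-332 and the hemidesmosome fasten basal keratinocytes to the basement membrane of the skin, and 9 genes of this adhesion system, given by name, were read from a table of 23970 gene symbols. They were the laminin chain genes Lama3 and Lamb3, the integrin genes Itga6, Itgb4 and Itga3, the transmembrane collagen gene Col17a1, the plakin genes Dst and Plec, and the anchoring fibril collagen gene Col7a1. All 9 had exactly 1 row in the table and passed the filter on low values. RNA came from keratinocytes of newborn mice at passage 0, grown in low-calcium medium on growth-arrested J2-3T3 cells, a mouse fibroblast feeder line that was removed before extraction, with no further treatment. The study had 2 control libraries and 2 Ovol2-deficient libraries, and asked what a deficiency of Ovol2, an epithelial transcription factor of the zinc-finger class, does to expression in these cells. The sources used here do not give the altered allele, what drives it or the mouse strain. Nor do they say whether the libraries of a group came from separate animals. The p-values therefore rest only on the spread between these libraries, which limma estimates for each gene partly from the other genes.

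Laminin-332 is a secreted trimer of an alpha, a beta and a gamma chain, and Lama3 and Lamb3 encode its alpha 3 and beta 3 chains. Basal keratinocytes bind it through integrin alpha 6 beta 4 in hemidesmosomes and through integrin alpha 3 beta 1 in focal contacts. Inside the cell, plectin and the epithelial form of dystonin (BP230) link the integrin and collagen XVII to keratin filaments, and on the dermal side collagen VII forms the fibrils that tie the basement membrane to the dermis. Inherited loss of these proteins causes forms of epidermolysis bullosa, the blistering skin diseases.

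The start regions of 4 members are shown, chosen by test result, level or motif match. Whether these letters bear on expression was not tested. Lamb3 was the member that passed the test, Col7a1 and Col17a1 had the lowest and the highest level, and 1 start of Dst carried the core motif of the Ovo family. RefSeq (build GRCm38.p6) gave start sites for 5 of the 9 members, 8 starts in all. Of the 250 bases before each start, motifs were searched in all, and the part printed here leaves out bases in exons of GENCODE M21. The sequences read 5′ to 3′ on the gene's strand, in lower case with motif matches in capitals.
Lamb3, chr1:193301744-193301992, plus strand: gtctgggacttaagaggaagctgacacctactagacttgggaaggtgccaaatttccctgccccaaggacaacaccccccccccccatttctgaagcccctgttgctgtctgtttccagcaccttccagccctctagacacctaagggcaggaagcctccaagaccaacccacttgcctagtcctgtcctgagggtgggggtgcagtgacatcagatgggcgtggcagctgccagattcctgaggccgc
Col17a1, chr19:47692095-47692292, minus strand: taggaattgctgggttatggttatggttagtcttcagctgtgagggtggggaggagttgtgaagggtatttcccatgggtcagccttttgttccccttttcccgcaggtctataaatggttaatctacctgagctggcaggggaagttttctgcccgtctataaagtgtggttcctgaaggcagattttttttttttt
Col7a1, chr9:108953336-108953585, plus strand: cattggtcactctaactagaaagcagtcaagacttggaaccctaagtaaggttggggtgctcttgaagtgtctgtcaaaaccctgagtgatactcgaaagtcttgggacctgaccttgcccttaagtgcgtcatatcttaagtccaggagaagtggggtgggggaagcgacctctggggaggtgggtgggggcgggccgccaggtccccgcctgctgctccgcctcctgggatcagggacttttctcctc
Dst, chr1:34160010-34160259, plus strand: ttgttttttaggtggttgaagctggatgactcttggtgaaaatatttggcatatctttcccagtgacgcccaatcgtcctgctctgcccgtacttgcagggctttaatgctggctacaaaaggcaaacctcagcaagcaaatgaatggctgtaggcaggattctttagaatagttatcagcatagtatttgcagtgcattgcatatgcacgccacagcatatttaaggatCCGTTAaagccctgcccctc
The capitals mark CCGTTA, the core bound by Ovo family proteins, which was found beginning 20 bases before this start of Dst. Searched on both strands, it occurred in 2.18% of 32851 windows of 250 bases before RefSeq starts, and in 1 of the 8 windows of the members. The E-box CAGGTG, which Snai and Zeb factors bind, occurred in 17.2% of all windows and in 3 of the 8, beginning 137 bases before another Dst start, 6 before the second Lamb3 start and 195 before the first Itga3 start. The match at Lamb3 lies in an annotated exon and the other 2 do not. The AP-1 motif TGANTCA occurred in 6.75% of all windows and in 0 of the 8. None of the motifs overlapped another, and a match describes letters only.

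Of the 9 members, Lamb3 fell in the Ovol2-deficient libraries and the other 8 did not pass the test in limma. All 9 log2 fold changes were below 0, as were 50.4% of those of all genes tested, with a member median of -0.43, a lowest of -0.92 for Col7a1 and a highest of -0.17 for Dst and Plec, while the median of 11350 genes tested was -0.0014. Of all genes tested, 0.511% were called lower and 0.837% higher at an adjusted p under 0.05. At an unadjusted p under 0.05, 7 members were lower and 0 higher, against 7.94% and 9.49% of all genes tested. For 8 members both deficient values lay below both controls, against 24.0% of all genes tested, and Plec was the exception. Scaled to keratinocyte identity genes, as described below, Dst and Plec stood at 0.003 and the other 7 stayed below 0.

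The unit, FPKM, scales fragments by transcript length and by the mapped fragments of the library, so levels can be set side by side between genes. Col17a1 had the highest level in controls, at a mean of 356, ranking 151 among the genes tested. It was followed by Itgb4 (180.1), Itga3 (164), Dst (133), Itga6 (118), Lamb3 (73.6), Plec (54.4), Lama3 (42.6) and Col7a1 (19.9). Among neighbours in that order, the libraries of Itgb4 and Itga3 overlapped and those of the other neighbours did not. In the deficient libraries Plec (48.0) stood above Lamb3 (45.7), but their values overlapped, as did those of Itga3 (120.2) and Dst (118).

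**Figure D1:**
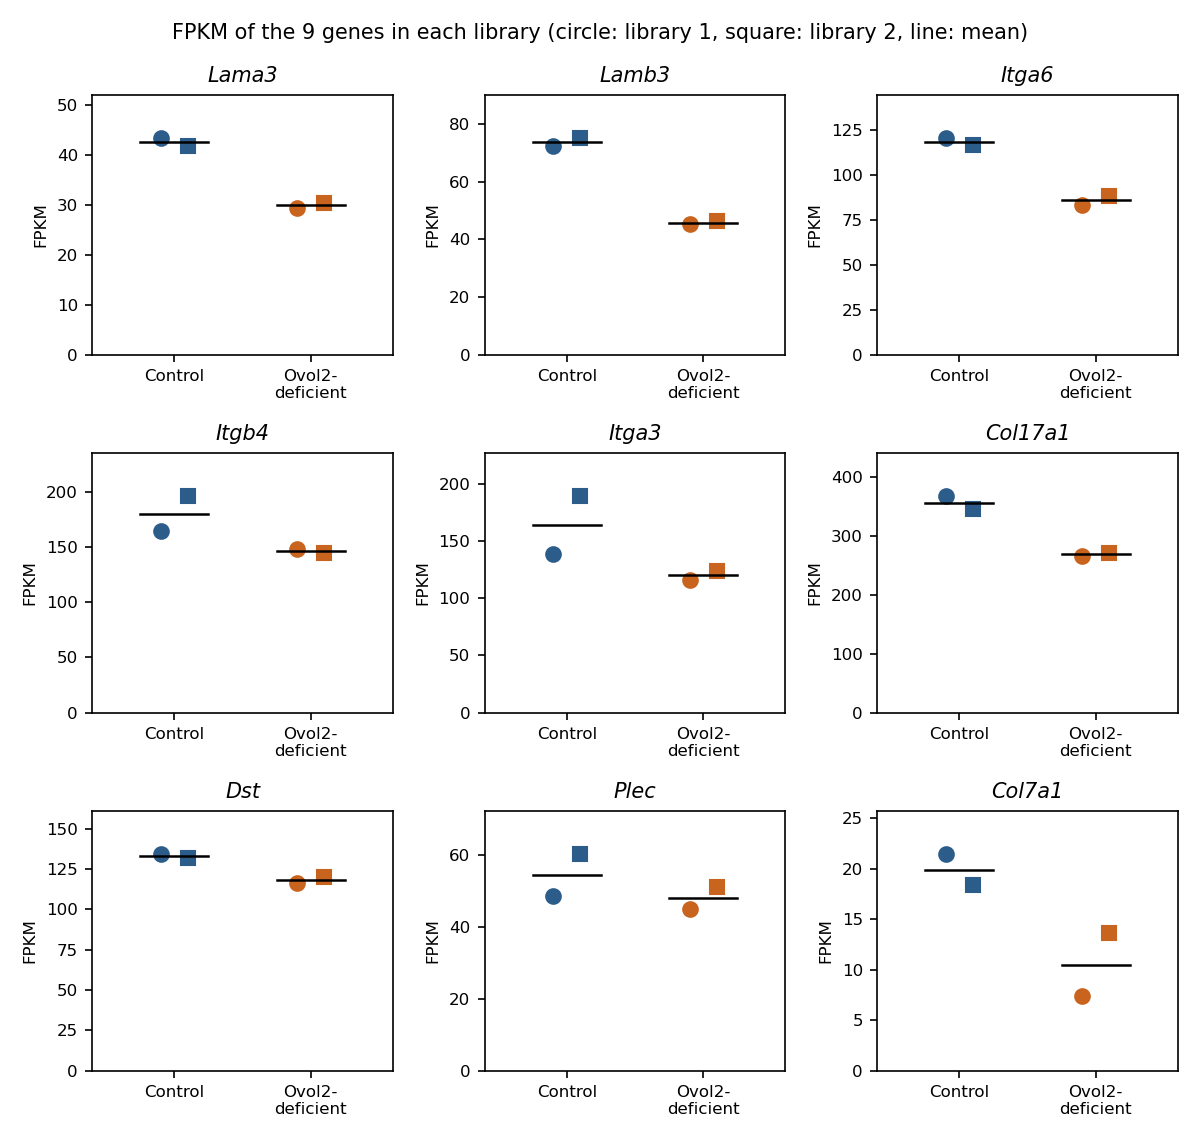
FPKM (vertical axes, each starting at 0) of the 9 genes in the control and Ovol2-deficient libraries, with circles for library 1, squares for library 2 and lines for group means. The groups do not overlap for 8 genes, and Plec overlaps, with deficient library 2 at 51.0 above control 1 at 48.5.

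Of the laminin chains, Lamb3 (ENSMUSG00000026639.18, mm10 chromosome 1, 193207699 to 193343878, plus strand) stood at FPKM 72.2 and 75.0 in controls 1 and 2 and at 45.2 and 46.1 in deficient libraries 1 and 2. Both deficient libraries were lower, and the libraries of each group lay close together. The deficient mean was 62.1% of the control mean (73.6 ± 1.98 and 45.7 ± 0.660, SD, n = 2 per group). The log2 fold change was -0.68 (SE 0.09, 95% interval -0.88 to -0.47, adjusted p = 0.0353 in limma). The call did not hold without either deficient library, where that group holds only 1 library. The log2 fold change stayed at -0.70 to -0.65 with any 1 library left out. The call was also lost under quantile normalization (adjusted p = 0.0548), without a variance trend (0.0659) and without a filter on low values (0.224). In the fits of these last settings, 0 genes of the whole table were called lower. Over 11 alternatives the adjusted p of Lamb3 ranged from 0.0124 to 0.224. Lama3 (ENSMUSG00000024421.16, on chromosome 18), whose chain carries the integrin-binding end of the trimer, stood at 43.4 and 41.8 in controls and 29.5 and 30.5 in deficient libraries. The groups were again apart, at 70.4% of the control mean. Its log2 fold change of -0.49 (SE 0.09, 95% interval -0.70 to -0.29) had an adjusted p of 0.0526 and did not pass. It passed with a stricter filter on low values (adjusted p = 0.0363, within 0.0330 to 0.253 over 11 alternatives), where fewer genes were tested.

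Itga6 (ENSMUSG00000027111.15, chromosome 2, 71745616 to 71858416, plus strand) encodes the alpha subunit of the hemidesmosomal integrin. It stood at 120.4 and 116 in controls and 83.5 and 88.2 in deficient libraries, with a log2 fold change of -0.46 (SE 0.09, 95% interval -0.67 to -0.25, adjusted p = 0.0581). The gap of 28.3 between the lowest control and the highest deficient library was wider than the difference within either group. With a mean FPKM of at least 5 as the filter, Itga6 passed (adjusted p = 0.0473, within 0.0308 to 0.255 over 11 alternatives). Itgb4 (ENSMUSG00000020758.15, chromosome 11, 115974709 to 116008412, plus strand), the beta subunit with a long cytoplasmic tail that binds plectin, stood at 164 and 196 in controls and 148 and 144 in deficient libraries. Control 2 was well above control 1, and the SD was 22.3 in controls against 2.74 in deficient libraries. Its log2 fold change of -0.30 (SE 0.11, 95% interval -0.56 to -0.04, adjusted p = 0.232) became -0.42 without control 1 and -0.17 without control 2.

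Itga3 (ENSMUSG00000001507.16, chromosome 11, 95044474 to 95076801, minus strand) encodes the alpha subunit of the laminin-332 receptor of focal contacts. It stood at 139 and 189 in controls and 116 and 124 in deficient libraries. Control 2 stood apart here too, as it did for Itgb4. The log2 fold change was -0.43 (SE 0.15, 95% interval -0.78 to -0.08, adjusted p = 0.195). It was -0.65 without control 1, where Itga3 passed (adjusted p = 0.0403, within a range of 0.0403 to 0.525 over 11 alternatives), and -0.21 without control 2.

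Col17a1 (ENSMUSG00000025064.15, chromosome 19, 47646344 to 47692094, minus strand) encodes collagen XVII, the transmembrane collagen also known as BP180. It stood at 367 and 345 in controls and 266 and 270.3 in deficient libraries. The groups were apart by 75.0 FPKM, the widest gap of the 9 genes on the linear scale. The deficient mean was 75.3% of the control mean, with a log2 fold change of -0.41 (SE 0.09, 95% interval -0.63 to -0.19, adjusted p = 0.0848).

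The plakins had the smallest differences. Dst (ENSMUSG00000026131.18, chromosome 1, 33908225 to 34308661, plus strand) encodes BP230 in epithelia and other, longer forms in nerve and muscle. It stood at 134 and 132 in controls and 117 and 119.975 in deficient libraries, a log2 fold change of -0.17 (SE 0.09, 95% interval -0.38 to 0.03, adjusted p = 0.379). Its groups did not overlap, but the interval included 0. Plec (ENSMUSG00000022565.15, chromosome 15, 76170974 to 76232574, minus strand), which encodes plectin, stood at 48.5 and 60.3 in controls and 45.0 and 51.0 in deficient libraries. Deficient library 2 lay above control 1, and the log2 fold change of -0.17 (SE 0.13, 95% interval -0.47 to 0.13, adjusted p = 0.555) ran from -0.33 without control 1 and -0.26 without deficient library 2 to -0.08 without deficient library 1 and -0.02 without control 2. The rows of Dst and Plec combine 3 and 11 start sites, so the epithelial forms could not be read apart from the others.

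Col7a1 (ENSMUSG00000025650.13, chromosome 9, 108953586 to 108984875, plus strand), the gene of the anchoring fibril collagen, stood at 21.4 and 18.4 in controls and 7.34 and 13.7 in deficient libraries. Both deficient libraries were lower, and deficient library 1 was well below library 2. The deficient mean was 52.8% of the control mean (19.9 ± 2.16 and 10.5 ± 4.48, SD, n = 2 per group). The log2 fold change of -0.92 was the lowest of the members but had the widest error (SE 0.24, 95% interval -1.48 to -0.35, adjusted p = 0.113). Without deficient library 1 it was -0.51 and without library 2 it was -1.32.

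**Figure D2:**
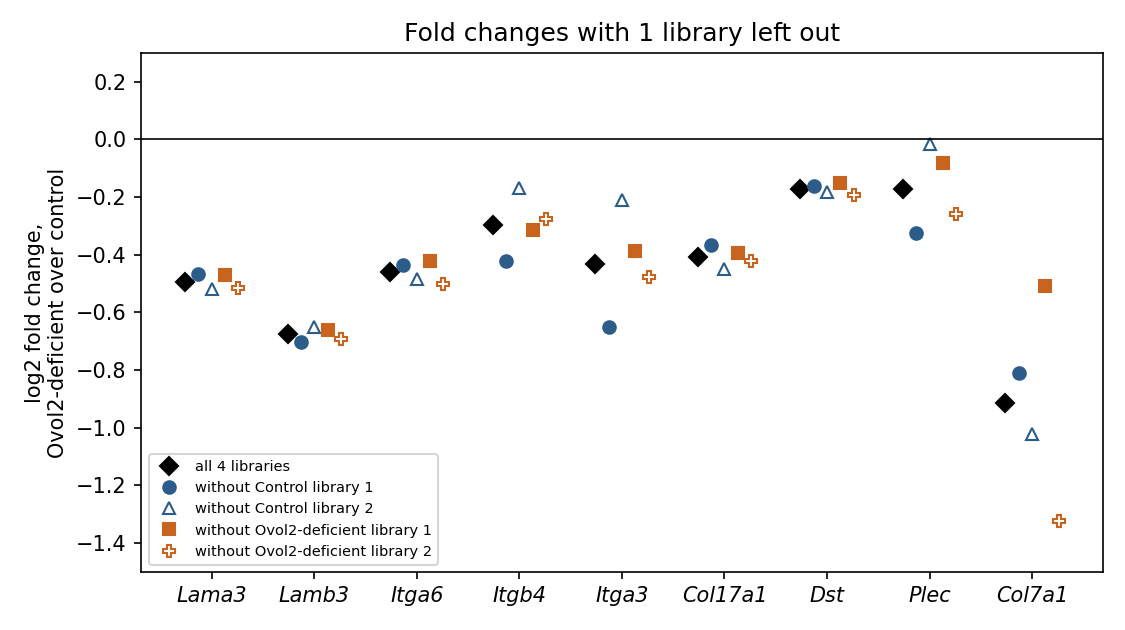
Log2 fold change of each gene (vertical axis, Ovol2-deficient over control, on log2(FPKM + 1)) with all 4 libraries and with 1 library left out, each point an estimate without its error. Lamb3 stays between -0.70 and -0.65, while Col7a1 runs from -1.32 to -0.51, Itga3 from -0.65 to -0.21 and Plec from -0.33 to -0.02.

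The authors' deposited table, made from the same 4 libraries, called 5 of the 9 members lower at an adjusted p under 0.05, with 2.1% of 11582 genes with an adjusted p called lower there. In the authors' deposited table these were Lamb3 (log2 fold change -0.67, adjusted p = 4.52e-08), Lama3 (-0.50, 5.31e-05), Itga6 (-0.45, 0.000391), Col17a1 (-0.38, 0.00336) and Itga3 (-0.41, 0.0241). Itgb4 did not pass in the authors' deposited table (-0.30, adjusted p = 0.0835), nor did Plec (-0.17, 0.603), Col7a1 (-0.34, 0.483) or Dst (-0.08, 0.889). The authors' deposited table and the FPKM gave nearly the same fold changes for 7 members. For Col7a1, the log2 ratio of the mean FPKM was -0.92 against -0.34 in the authors' deposited table, and for Dst it was -0.17 against -0.08. The cause of these differences was not tested. The depth behind each gene is shown by the mean normalized value of the authors' deposited table, which was 3059 for Col7a1, 4191 for Lamb3, 6761 for Lama3 and 38521 for Col17a1.

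**Figure D3:**
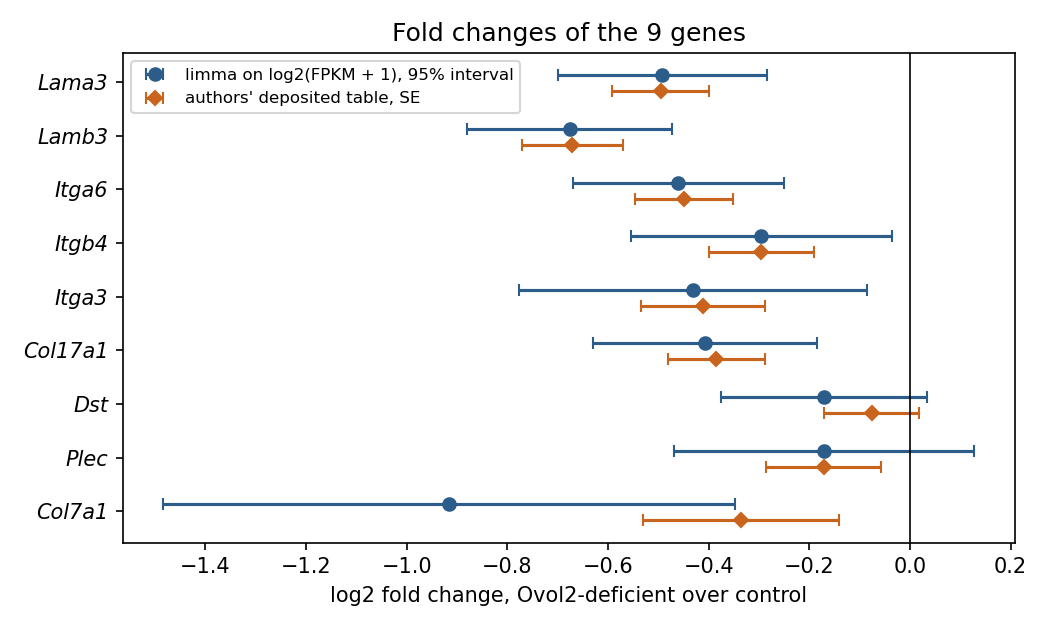
Log2 fold changes (horizontal axis, Ovol2-deficient over control) of the 9 genes, with blue circles for limma on log2(FPKM + 1) with 95% intervals and orange diamonds for the authors' deposited table with standard errors. The estimates lie close together except for Col7a1 (-0.92 and -0.34) and Dst (-0.17 and -0.08).

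Chains and partners of 1 structure were also compared within a library, as a ratio of FPKM. The ratio of Lamb3 to Lama3 was 1.66 and 1.80 in controls and 1.53 and 1.51 in deficient libraries. Both deficient ratios were lower, with a difference in the mean log2 ratio of -0.18, and this was the only one of 6 pairs whose groups did not overlap. The two-sided exact permutation test gave p = 0.333, the smallest that 2 libraries against 2 allow, so no pair could pass. The ratio of Itgb4 to Itga6, the subunits of the hemidesmosomal integrin, was 1.36 and 1.68 in controls and 1.77 and 1.63 in deficient libraries (log2 difference 0.17, exact p = 0.667). Control 1 was low and the other 3 libraries lay together, and the log2 difference was 0.017 without control 1 and 0.318 without control 2. The ratio of Dst to Plec was 2.77 and 2.19 in controls and 2.59 and 2.35 in deficient libraries, a log2 difference of 0.0021 (exact p = 1.0). The ratios of Itga3 to Itga6 and of Col17a1 to Itgb4 overlapped as well (log2 differences of 0.03 and -0.11, exact p = 1.0 for each). The ratio of Col7a1 to Lamb3 was 0.297 and 0.245 in controls but 0.162 and 0.296 in deficient libraries (log2 difference -0.30, exact p = 0.667). Here the deficient libraries lay further apart than the groups. The 6 tests form 1 family, in which no adjusted p can be below 0.333.

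**Figure D4:**
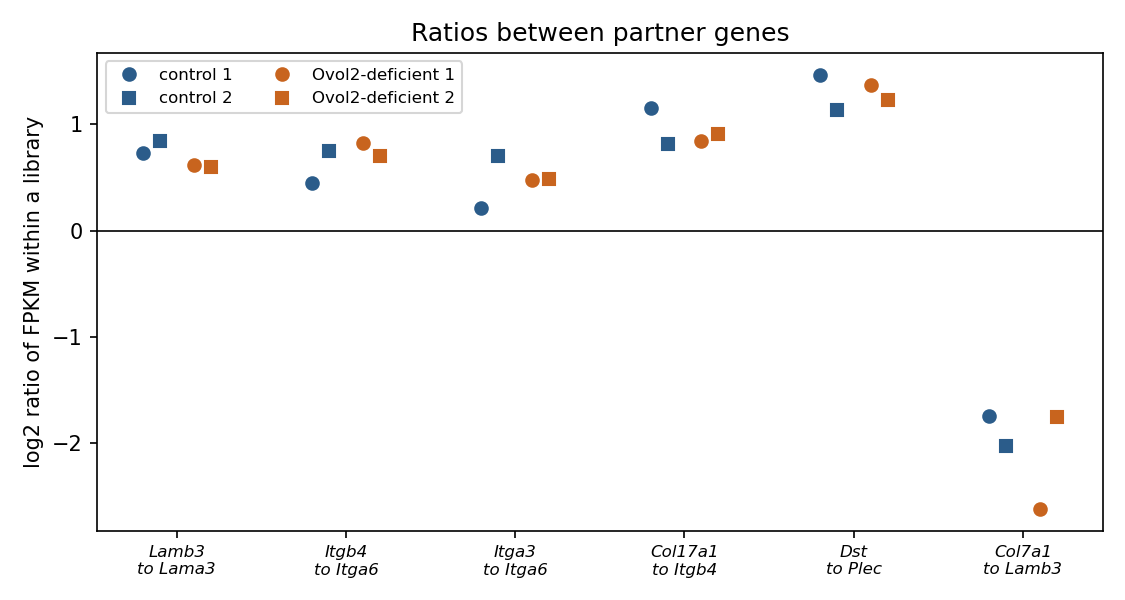
Log2 ratio of FPKM between partner genes within each library (vertical axis), with circles for library 1 and squares for library 2, controls in blue and Ovol2-deficient libraries in orange. The groups are apart for Lamb3 to Lama3 (0.74 and 0.84 in controls, 0.62 and 0.60 in deficient libraries) and overlap for the other pairs.

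Other genes of the basement membrane zone did not pass the test. Of 23 listed genes of other laminins and the basement membrane, 12 were tested, 6 stood below 0 and 6 above, 0 passed in limma (at an unadjusted p under 0.05, 4 were lower and 1 higher) and the median log2 fold change was -0.06. Col18a1, the collagen of epithelial basement membranes that releases endostatin, stood at 90.6 and 100.1 in controls and 76.6 and 78.7 in deficient libraries (a log2 fold change of -0.29, with an adjusted p of 0.170). The type IV collagen genes Col4a1 and Col4a2 were at 0.11 and 0.09 (adjusted p = 0.685 and 0.770), with overlapping groups. Dag1, which encodes the laminin receptor dystroglycan, stood at 64.8 and 66.7 in controls and 48.3 and 56.9 in deficient libraries (-0.32, adjusted p = 0.180). Chosen after their values were seen, the ends of this list were agrin, Agrn (-0.95, adjusted p = 0.0608), and nidogen, Nid1 (0.80, adjusted p = 0.0668), which bridges laminin and type IV collagen. Nid1 passed in the authors' deposited table (log2 fold change 0.66, adjusted p = 0.000481), the 1 gene of the list that did. Agrn stood nearer 0 there, at -0.53 (adjusted p = 0.114).

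Among 10 tested partners and keratin anchors of the hemidesmosome, 7 stood below 0 and 3 above, 0 passed in limma (1 lower and 1 higher at an unadjusted p under 0.05) and the median was -0.09, or -0.009 under quantile normalization. Cd151, the tetraspanin that associates with laminin-binding integrins, stood at 116 and 116 in controls and 99.2 and 103.8 in deficient libraries (a log2 fold change of -0.19, with an adjusted p of 0.326). The basal keratin genes Krt5 (-0.27, adjusted p = 0.340) and Krt14 (-0.17, adjusted p = 0.642) did not pass, nor did the periplakin gene Ppl (0.21, adjusted p = 0.562). Both ends of the list were singled out after their values were seen. Klhl24, a gene of keratin turnover, stood highest, at 10.1 and 9.93 in controls and 11.6 and 14.4 in deficient libraries (0.34, adjusted p = 0.218). Fermt1, which encodes the integrin activator kindlin-1, stood at 11.1 and 12.7 in controls and 7.74 and 7.498 in deficient libraries (-0.58, adjusted p = 0.0581). It was the 1 gene of the list that passed in the authors' deposited table (adjusted p = 0.00125). Of 13 tested genes of other integrins and focal adhesions, 7 stood below 0 and 6 above, 0 passed in limma (4 lower and 2 higher at an unadjusted p under 0.05; 0 in the authors' deposited table) and the median was -0.11. Itgb1, the beta partner of Itga3 and the lowest of the list, stood at 178 and 174 in controls and 126 and 155 in deficient libraries (-0.33, adjusted p = 0.216). The focal adhesion genes Zyx (-0.11, adjusted p = 0.633), Vcl (-0.26, adjusted p = 0.224) and Ilk (-0.30, adjusted p = 0.193) were below 0 too. Without overlap between the groups, 6 of the 13 stood lower and 4 higher, against 24.0% and 24.1% of all genes tested. The 4 higher genes, named after their values were seen, were Itga5 (0.34, adjusted p = 0.164), Fermt2 (0.27, adjusted p = 0.264), Itgav (0.20, adjusted p = 0.358) and Itgb5 (0.07, adjusted p = 0.755).

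Of 14 tested genes of laminin and collagen processing, 5 stood below 0 and 9 above, 0 passed in limma (1 lower and 2 higher at an unadjusted p under 0.05) and the median was 0.05. P4hb, a subunit of prolyl 4-hydroxylase, was at -0.07 (adjusted p = 0.792), Mmp14, a membrane-bound matrix protease, at -0.10 (adjusted p = 0.736), and the sheddase gene Adam9 at 0.18 (adjusted p = 0.354). Serpinh1, the collagen chaperone HSP47, stood at 116 and 121 in controls and 119.6 and 118 in deficient libraries (0.01, adjusted p = 0.969). Both ends of this list were singled out after their values were seen. The collagen hydroxylase genes P4ha2 (0.42, adjusted p = 0.101) and Plod2 (0.37, adjusted p = 0.104) stood highest, both without overlap between the groups. Plau, the urokinase gene, stood lowest, at -0.80 (adjusted p = 0.0608), and was the 1 gene of the list called in the authors' deposited table (adjusted p = 0.000670).

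**Figure D5:**
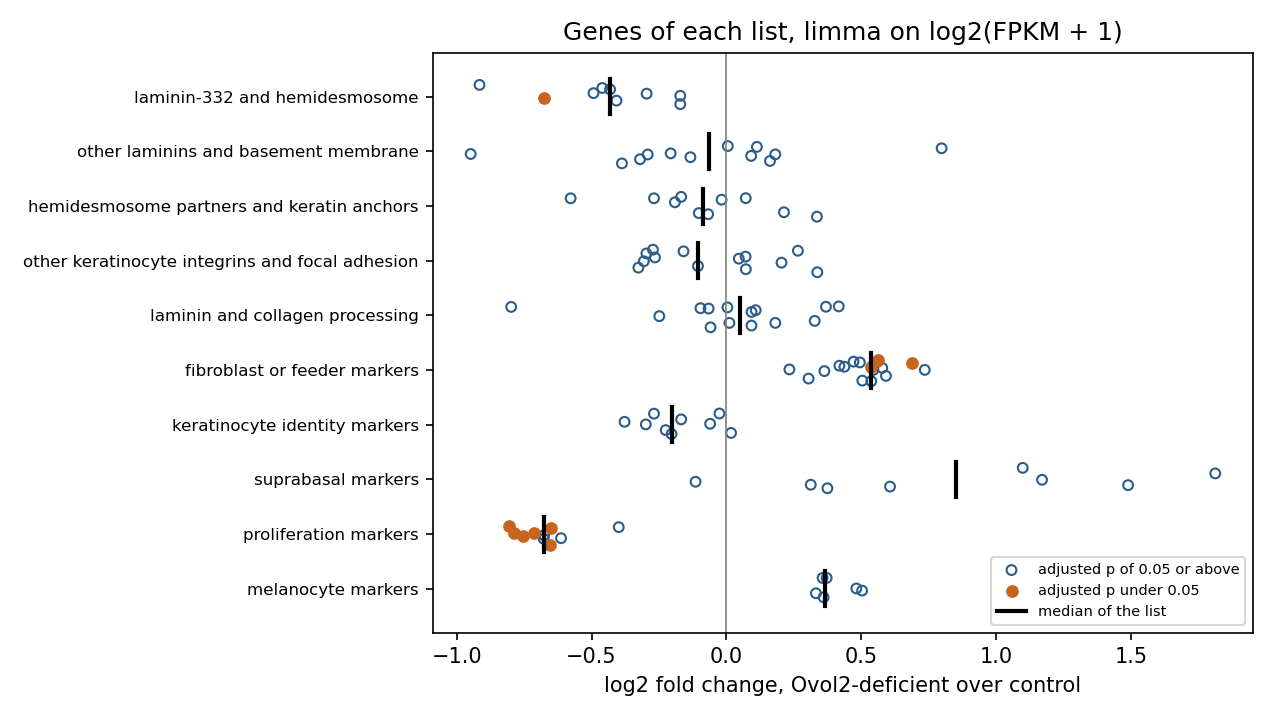
Log2 fold changes (horizontal axis, limma on log2(FPKM + 1)) of the genes of each list, one point per gene, filled in orange where the adjusted p was under 0.05, with black bars for list medians. The median is -0.43 for the 9 laminin-332 and hemidesmosome genes, -0.06 to -0.11 for the 3 lists of other adhesion genes that lie below 0, 0.54 for fibroblast markers and -0.68 for proliferation markers.

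The labelled cell type was checked against its markers, and markers of other states and cell types were read in the same libraries. Krt5 stood at 2269 to 2960 FPKM in the 4 libraries, and 8 of 9 keratinocyte identity genes were below 0 (median -0.20). The 9 summed to FPKM 7562 and 6986 in controls 1 and 2 against 6900.0 and 5844 in deficient libraries 1 and 2. In this list 0 passed in limma, 2 were lower at an unadjusted p under 0.05, and 1 was lower in the authors' deposited table. Under quantile normalization the median of this list was -0.03. Of 18 tested fibroblast or feeder markers 3 rose, Loxl1, Pcolce and Vim, and all 18 stood above 0 without overlap between the groups, against 24.1% of all genes tested that stood higher without overlap. At an unadjusted p under 0.05, 16 were higher, and the authors' deposited table called 11 higher. The share of all genes called higher in that table was not computed. The summed FPKM of the fibroblast or feeder markers was 639 and 595 in controls against 859 and 887 in deficient libraries. Whether these transcripts came from feeder cells or from keratinocytes cannot be told apart in bulk RNA. Of 10 proliferation markers 6 fell, and all 10 stood below 0 (summed FPKM 309 and 348 against 213 and 194), each of them lower at an unadjusted p under 0.05 and called lower in the authors' deposited table. All 6 tested melanocyte markers stood above 0 (summed FPKM 62.2 and 67.7 against 90.8 and 84.2). Of 8 suprabasal markers 7 did (1230 and 747 against 1313 and 955), 3 of them without overlap between the groups. In these lists 0 passed in limma, 4 and 3 were higher at an unadjusted p under 0.05, and 1 and 0 were called higher in the authors' deposited table. The suprabasal genes with the highest levels, Sbsn, Krtdap, Ivl and Krt10, stood at 0.37, -0.11, 0.61 and 1.49 in limma. In the authors' deposited table they stood at 0.21, -0.08, 0.29 and 0.11. Immune and endothelial markers reached at most 2.77 FPKM, and 2 of the 7 listed, Pecam1 and Kdr, were tested. Named after their values were seen, Cd207 and Cdh5 stood at 0. Fewer basal keratinocytes and less RNA per cell cannot be told apart in bulk RNA, and the part of these shifts in the differences of the 9 members was not tested. Scaled so that the keratinocyte identity genes stood level, all genes shifted by 0.17 on the log2 scale and the members' median became -0.26. Lamb3 then stood at -0.50 (adjusted p = 0.0129, within a range of 0.0124 to 0.224 over 11 alternatives) and Col7a1 at -0.74 (adjusted p = 0.00282, within 0.00282 to 0.319). Under that scaling, chosen after seeing the data, the medians of the basement membrane, hemidesmosome partner and focal adhesion lists turned to 0.11, 0.09 and 0.07. Ovol2 itself stood at 2.68 and 2.14 in controls and at 1.45 and 0.941 with the deficiency. The log2 fold change on log2(FPKM + 1) was -0.64 (adjusted p = 0.129 in limma), and the added 1 understates the change at levels this low. Reads outside an altered part of the gene, which the labels do not describe, may count toward this level.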

How the data were processed

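RNA was sequenced from 2 control and 2 Ovol2-deficient keratinocyte libraries. Per the labels' protocols, full-length cDNA was amplified and tagmented with a Nextera kit. The build mm10 and the tools TopHat and HTSeq were used, per the submitters' processing notes. Versions, annotation, strand and FPKM tool are not given in the sources used here. A table in FPKM was deposited by the authors with 24487 rows. Their deposited comparison table holds, per the file headers, a mean normalized signal, a test score, log2 fold changes with standard errors, and p-values, raw and adjusted. Counts per library were not used here, so no depth per library, counting interval or floor is given. The design left the choice between a count test and limma to the unit of the file.

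Date-like symbols (27 rows) were dropped, and rows sharing a symbol were summed. The 11350 genes whose mean FPKM reached 1 were tested on log2(FPKM + 1), which understates changes of low genes, using limma 3.58.1 under R 4.3.3 (a group term, variance trend, Benjamini-Hochberg adjustment over all genes, threshold 0.05). Over these genes, 5 to 13 values were exactly equal between any 2 libraries, and log2 values correlated at 0.972 to 0.987 across genes, which are not independent replicates. Columns named mutant were assigned to the Ovol2-deficient group with the table's numbers, since the titles use another code.

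The members and lists were chosen with earlier results of these data known. All members are named, and up to 4 genes per list (called genes first, then those with the highest mean FPKM). Genes outside that rule are marked in the text as chosen after their values were seen. The 5 genes nearest Lamb3 were taken by the mean absolute gap of centred log2 values over the 4 libraries. Further components of these structures were not analysed here. Alternatives were another pseudocount, other filters, quantile normalization, no variance trend, the replicate block, leaving out each library, and a scaling to keratinocyte identity genes chosen after seeing the data. Coordinates are from GENCODE M21 (mm10) and start regions from RefSeq.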

Additional observations from a re-analysis of the deposited data

How the results depend on the processing

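All 9 log2 fold changes stayed below 0 under 10 other settings. Of these, the filters, the variance trend and the replicate block left each fold change at its main value by design. Only the pseudocount, quantile normalization and leaving out a library could move a sign. Under the scaling to keratinocyte identity genes, chosen after seeing the data, Dst and Plec turned to 0.003 (both) while the other 7 stayed below 0. The number of members called, 1 of 9 with all libraries, was 0 without a filter on low values, 0 under quantile normalization, 0 without a variance trend, 3 with a mean FPKM of at least 5, 2 under the keratinocyte scaling, and 0 to 2 with 1 library left out. The count of all genes called, 153, became 3, 5, 6, 267 and 764 under the first 5 of these in the same order, and 10 to 397 with 1 library left out. Of the 153, 58 were lower and 95 higher, against 52 and 712 under the keratinocyte scaling, 0 and 5 under quantile normalization, 0 and 6 without a variance trend, and 0 and 3 without a filter. With the replicate block, 4 members (Lama3, Lamb3, Itga6 and Col17a1) and 518 genes (183 lower, 335 higher) were called. The numbers are not stated to pair the libraries, and the deviations of same-numbered libraries correlated at 0.22 across genes. Of the pair ratios, 4 changed sign with 1 library left out. Itga3 to Itga6 ran from -0.215 (without control 1) to 0.277, Col17a1 to Itgb4 from -0.281 to 0.058 (without control 1), Dst to Plec from -0.166 (without control 2; -0.068 without deficient library 1) to 0.17, and Col7a1 to Lamb3 from -0.733 to 0.135 (without deficient library 1). Fewer genes were tested under the stricter filter and more without one. The cause of the changes between settings was not tested. With 2 libraries per group and no counts per library, depth could not be weighed.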

Other observations

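By pattern over the 4 libraries, the genes nearest to Lamb3 among those tested were Phyhip, Ptch1, Hmgn2, Trp53i11 and Kif23, with a mean absolute gap of 0.0211 to 0.0285 between centred log2 values. Ptch1, the receptor of Hedgehog ligands, stood at FPKM 11.0 and 11.5 in controls and 6.31 and 6.83 in deficient libraries and fell by 0.70 in log2 value (adjusted p = 0.0395 in limma). Hmgn2, a nucleosome-binding protein gene, stood at 85.2 and 86.5 in controls and 54.7 and 53.4 in deficient libraries and fell by 0.66 (adjusted p = 0.0353). Trp53i11 fell by 0.65 (adjusted p = 0.0392), from 36.8 and 39.6 to 23.3 and 24.7. Kif23, a kinesin of cytokinesis, fell by 0.62 (adjusted p = 0.0463), from 13.5 and 14.7 to 8.78 and 8.86. Phyhip, at 2.36 and 2.51 against 1.11 and 1.25, did not pass (adjusted p = 0.0739). With 4 libraries and 11350 genes, close matches in pattern are a description only. These genes were picked by their match to Lamb3 in the same libraries, so their falls follow from that choice and add no evidence.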
